A study of Equus caballus with 4 samples.

Results

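The genes described here are a list of 44 names from fatty acid synthesis, desaturation, storage and oxidation, looked up by the gene name that the files give a probe. *HACD1* and *PTPLA* are names of the same gene, and the array uses the older one, *PTPLA*. By name, 38 of the 44 had a probe, 81 probes in all, and 6 had none. Of the 38, 30 had a probe bright enough to be tested, out of 15534 genes tested on the whole array. The other 8, *FADS3*, *ELOVL7*, *ACACB*, *DGAT2*, *LPL*, *FABP4*, *PPARD* and *PPARG*, had no probe with the same channel well above background on all 4 arrays. No fold is given for them.

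Long-chain fatty acids are built from acetyl-CoA, lengthened by the elongase cycle and given double bonds by desaturases. They are then activated to acyl-CoA, stored as triacylglycerol in lipid droplets, or carried into mitochondria by the carnitine palmitoyltransferases and oxidised. Skeletal muscle is a major site of fatty acid oxidation, and the PPAR nuclear receptors, which bind fatty acids, control many genes of these steps.

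The mRNA came from differentiating equine satellite cells (ESC), the muscle precursor cells, isolated from the *semitendinosus* muscle of healthy colts aged 6 months, of which 6 were sampled. After 2 d of differentiation HMB (hydroxymethylbutyrate, which arises from leucine) was given to the treated cells for 24 h, and control cells received none, so that both were at day 3 of differentiation. The methods give the dose as 50 µM and the sample labels as 50 µg, and the labels also contain the words GO-treated where titles and source names say HMB. Cy5 marked the treated and Cy3 the control cells on each of 4 two-colour arrays of 1 slide, and the dyes were never exchanged, so dye bias and treatment cannot be told apart. Treated and control cells were also grown on separate plates, so plate and treatment cannot be told apart. The replicates are called biological, but the colts behind each array are not named, so the *P* values measure only the spread between these 4 arrays, and so small a number limits their precision.

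Values are log2 ratios of HMB-treated over control cells, where a positive value stands for more mRNA with HMB. The mean over the 4 arrays was tested against 0 with limma, two-sided, and *P* was adjusted by the Benjamini and Hochberg method over all 27383 tested probes, with a threshold of 0.05. A gene is read from its tested probe of highest mean signal. Errors are SD over the 4 arrays.

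Of the 30 tested fatty acid genes, 11 (36.7%) passed the threshold, 7 higher and 4 lower with HMB than in control cells. The share was 22.5% over all tested genes, 10.9% higher and 11.6% lower. *FABP5*, *ELOVL6*, *ELOVL1*, *ELOVL5*, *FADS2*, *ABHD5* and *ACOT7* rose, and *CPT1B*, *SCD5*, *PTPLA* and *PPARA* fell. The median log2 ratio of the 30 genes was 0.06, beside 0.02 for all tested genes. By array, their median was 0.03, 0.04, 0.09 and 0.01 on arrays 1 to 4. *ACOT7*, *PTPLA*, *SCD5* and *ABHD5* were singled out by the study from the same arrays, so neither their calls nor their direction is independent evidence. The 36.7% includes them, so it cannot be read as an excess over the 22.5%.

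**Figure D1:**
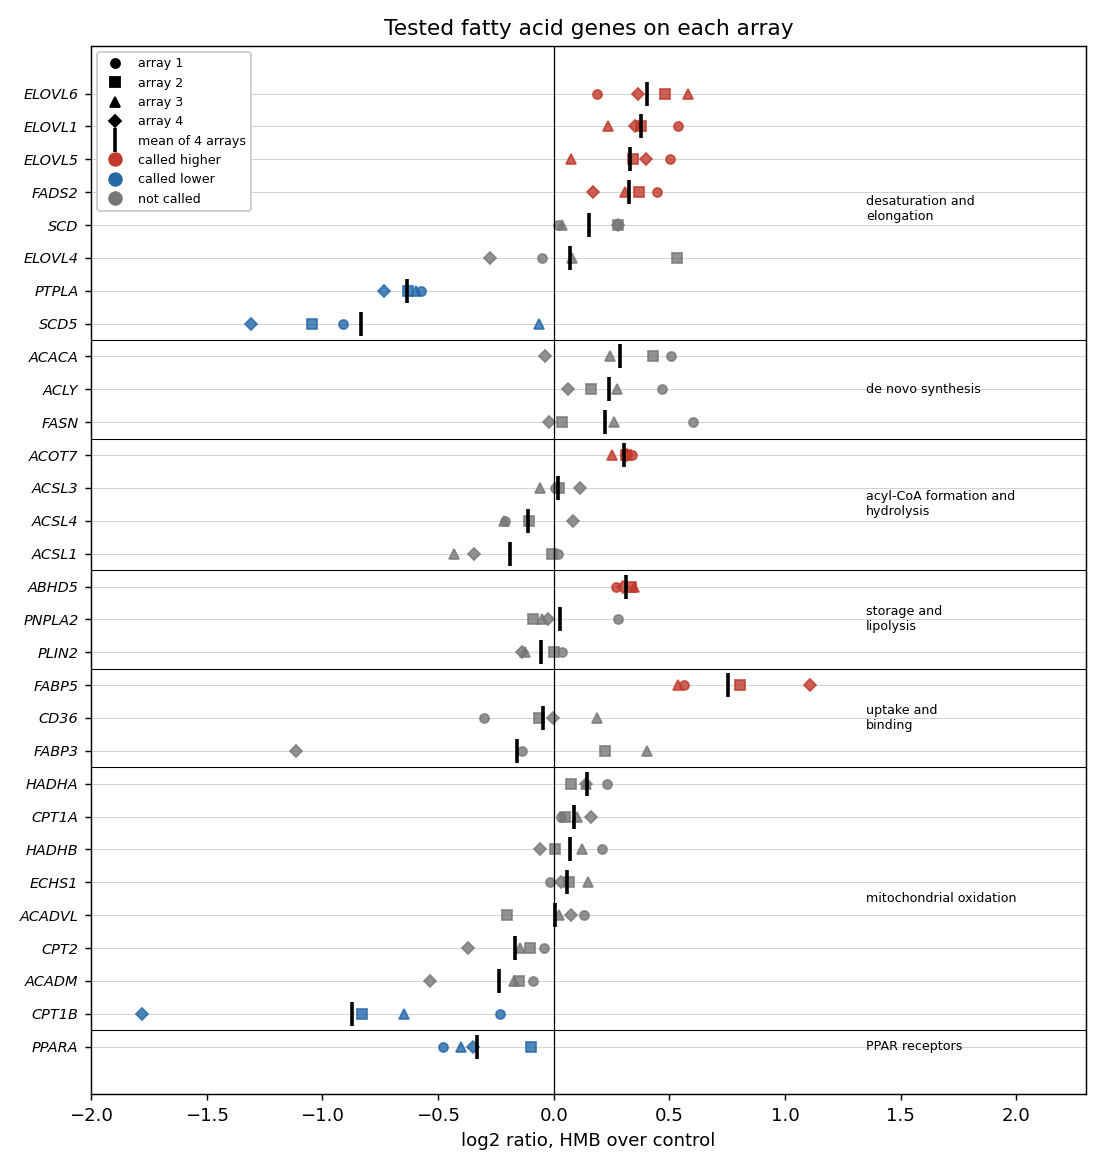
Log2 ratio of HMB-treated over control cells for the 30 tested fatty acid genes on each of the 4 arrays (symbols), with the mean over arrays as a black bar, grouped by role. The 7 genes called higher are red, the 4 called lower blue and the 19 not called grey, and *CPT1B* spreads from -1.78 to -0.23 while *PTPLA* stays between -0.74 and -0.57.

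Desaturation and elongation held 6 of the 11 called genes, with 4 higher and 2 lower among 8 tested and a median log2 ratio of 0.24. *PTPLA* encodes a dehydratase of the elongase cycle that is abundant in muscle. Its brighter probe (chr29:16834231-16834290 on EquCab1, the build of all positions here) had log2 ratios of -0.57, -0.63, -0.60 and -0.74 on arrays 1 to 4. The mean was -0.63 ± 0.07 (1.55-fold lower, adjusted *P* = 0.0024). With centred ratios the mean was smaller, at -0.40, and still past the threshold (adjusted *P* = 0.00839, in a range from 0.000889 to 0.0374 over the alternatives). As reported, all 4 arrays lay close together, and the signal in HMB-treated cells (13.06 to 13.18, as log2 signal) was below that in control cells (13.74 to 13.79) without overlap. The other probe of the gene gave -0.64 (adjusted *P* = 0.00201). Both probes cover the following 20 bases, in capitals because they are shared, which are printed to show that the probes are not independent readings.
PTPLA, shared by both probes: CACGGTGCTTTTTCCAGAAC

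*SCD5* encodes a stearoyl-CoA desaturase, which places the double bond of monounsaturated fatty acids. Its brightest probe had log2 ratios of -0.91, -1.05, -0.06 and -1.31 on arrays 1 to 4. The mean was -0.83 ± 0.54 (1.78-fold lower, adjusted *P* = 0.0279). Array 3 stood near 0 while the other 3 arrays were all well below it. The gene has 5 tested probes, shifted along the transcript by a few bases and sharing 54 bases, so they were compared on the same array. On array 3 the other 4 probes gave between -0.94 and -0.69, and all 5 probes passed the threshold with means between -1.10 and -0.78. A probe 3 bases away (chr3:44936347-44936406) had -1.14, -1.07, -0.94 and -1.09 on arrays 1 to 4, with no array apart. The brightest probe and this one are shown because nearly the same bases gave different values on array 3, and capitals mark the bases common to all 5 probes.
SCD5, brightest probe, chr3:44936344-44936403, minus strand: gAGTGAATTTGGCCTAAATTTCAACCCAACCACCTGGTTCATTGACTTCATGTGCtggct
SCD5, neighbouring probe, chr3:44936347-44936406, minus strand: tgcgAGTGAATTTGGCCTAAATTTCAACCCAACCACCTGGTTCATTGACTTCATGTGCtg
The call of the brightest probe was lost without array 1 (adjusted *P* = 0.0851), array 2 (0.0899) or array 4 (0.0751), and kept without array 3 (mean -1.09, adjusted *P* = 0.00857). On those 3 arrays another of the 5 probes was the brightest, and it passed as well (-0.81, adjusted *P* = 0.0426). Averaged over its 5 probes the gene had an adjusted *P* of 0.00276, the lowest over the alternative settings, which reached 0.259. With normexp background correction its mean was -0.55 and still past the threshold (adjusted *P* = 0.0149).

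Of the elongases, *ELOVL6*, which lengthens saturated fatty acids of palmitate length, had log2 ratios of 0.19, 0.48, 0.58 and 0.36 on arrays 1 to 4. The mean was 0.40 ± 0.17 (1.32-fold, adjusted *P* = 0.0187). All 4 ratios were positive, and the HMB signal lay above the control signal without overlap. *ELOVL1*, an elongase of very long saturated chains, had 0.54, 0.38, 0.24 and 0.35, a mean of 0.38 ± 0.12 (adjusted *P* = 0.0157). Its 5 overlapping probes gave means between 0.35 and 0.39 and all 5 passed, so the probe chosen made little difference. *ELOVL5*, which lengthens polyunsaturated fatty acids, had 0.50, 0.34, 0.08 and 0.40, a mean of 0.33 ± 0.18 (adjusted *P* = 0.0367). Array 3 was its lowest. Leaving out array 2 ended the call of all 3 elongases (adjusted *P* = 0.0839, 0.0718 and 0.129 for *ELOVL6*, *ELOVL1* and *ELOVL5*). *ELOVL6* was also lost without array 3 (0.0787), and *ELOVL5* without array 1 (0.0909) or array 4 (0.087). With ratios that were centred but not lowess normalised *ELOVL5* had 0.25 and did not pass (adjusted *P* = 0.0968, in a range from 0.0346 to 0.177 over the alternatives), and with normexp background correction it had 0.20 and passed (0.0388).

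*FADS2* encodes the desaturase of the first step from the essential fatty acids to longer polyunsaturated ones. The brightest of its 5 probes had log2 ratios of 0.45, 0.37, 0.31 and 0.17 on arrays 1 to 4. The mean was 0.32 ± 0.12 (1.25-fold, adjusted *P* = 0.0222). Array 4 was the lowest on each of the 5 probes, which share 56 bases. The means of the probes ranged from 0.32 to 0.69. Of the 3 probes with both channels well above background on all 4 arrays 2 passed, while the other 2 probes entered the test only through the HMB channel, where the signal was higher, and are given as a description. On the dimmest of them the control signal was well above background on 2 of 4 arrays, and the ratios were 0.86, 0.97, 0.59 and 0.32. The brightest and the dimmest probe are shown with the shared bases in capitals, as almost the same bases gave means of 0.32 and 0.69.
FADS2, brightest probe, chr12:12207517-12207576, plus strand: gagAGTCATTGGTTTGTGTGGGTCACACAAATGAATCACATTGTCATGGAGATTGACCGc
FADS2, dimmest probe, chr12:12207520-12207579, plus strand: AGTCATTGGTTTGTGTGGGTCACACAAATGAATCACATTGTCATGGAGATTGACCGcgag
The call of the brightest probe ended when array 1 (adjusted *P* = 0.0557), array 2 (0.106) or array 3 (0.0849) was left out. Its mean was 0.08 (adjusted *P* = 0.283) with normexp background correction and 0.20 (0.164) with centred ratios, and over all alternatives its adjusted *P* ranged from 0.0208 to 0.68.

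**Figure D2:**
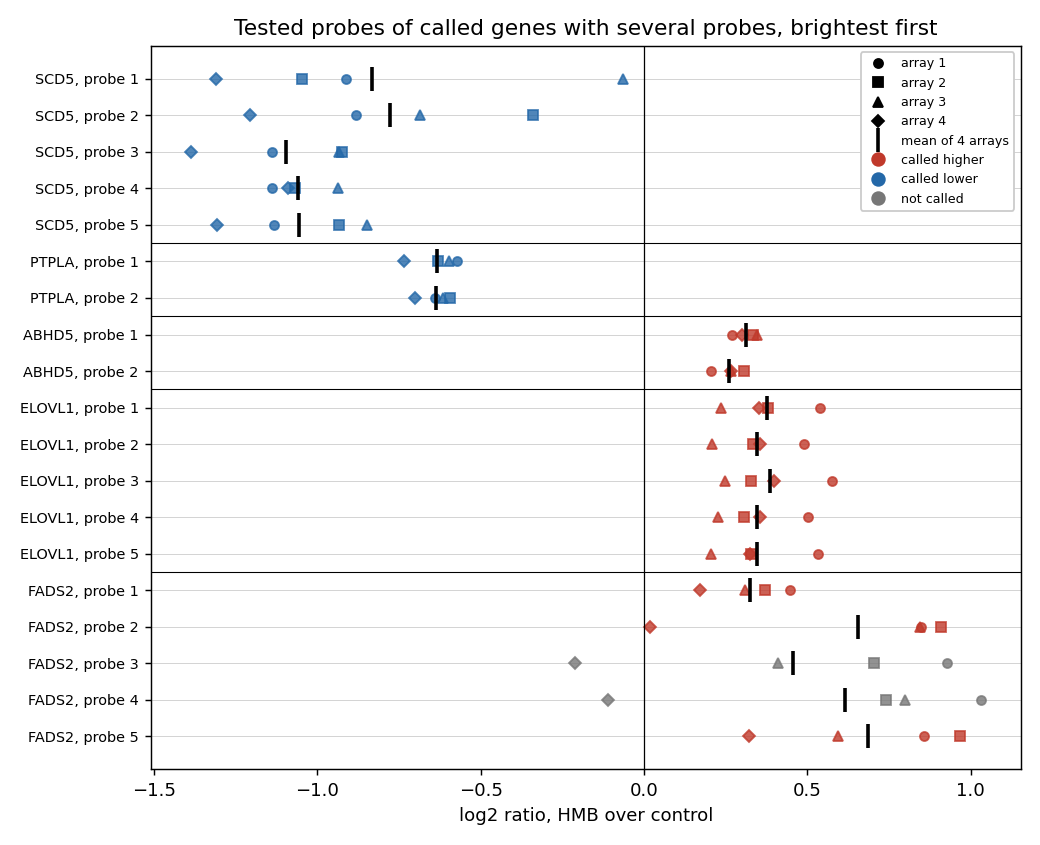
Log2 ratio of HMB-treated over control cells on each array (symbols) and mean (black bar) for every tested probe of the called genes with several probes, the brightest probe first. The brightest *SCD5* probe has -0.06 on array 3, where the other 4 probes have -0.94 to -0.69, and the 5 *FADS2* probes have means from 0.32 to 0.69.

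The remaining tested genes of this role did not pass. *SCD*, the main stearoyl-CoA desaturase of many tissues, had a mean of 0.15 ± 0.14 and each of its 3 probes gave 0.15. *ELOVL4* had 0.07 ± 0.34, and its HMB signal was above background on 3 of 4 arrays. *FADS1*, the desaturase that acts after *FADS2*, had no probe under its own name. The description column of the files gives its name to 5 probes, found after the values had been seen, on the same chromosome as *FADS2*. The brightest had log2 ratios of 0.42, 0.34, 0.43 and 0.47 on arrays 1 to 4. The mean was 0.41 ± 0.05 (1.33-fold, adjusted *P* = 0.00704). All 5 probes passed, with means between 0.41 and 0.46, and they share 56 bases. The study had picked *FADS1* from these arrays as well, so it too is not independent evidence.

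Beside these, 7 of 8 further elongation and desaturation genes were tested, and 0 were called higher and 1 lower, with a median of 0.01. The 1 was *ELOVL3*, another elongase of very long chains, at -0.55 ± 0.38 (adjusted *P* = 0.0383), with array 4 at -1.10 and the others between -0.52 and -0.24. It was lost without array 1 (adjusted *P* = 0.0516), array 2 (0.0745) or array 3 (0.107). Among the other dehydratases and reductases of the elongase cycle, *HACD2* had 0.20, *HACD3* 0.10, *HSD17B12* 0.07, *HACD4* 0.01 and *TECR* -0.11, and none of these 5 passed (adjusted *P* between 0.0805 and 0.931).

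For de novo synthesis, 3 of 4 genes were tested and 0 passed. *ACACA*, which encodes acetyl-CoA carboxylase, the committed step, had log2 ratios of 0.51, 0.43, 0.25 and -0.04 on arrays 1 to 4, and a mean of 0.29 ± 0.24 (adjusted *P* = 0.0861). *ACLY*, which supplies cytosolic acetyl-CoA from citrate, had 0.47, 0.16, 0.27 and 0.06, a mean of 0.24 ± 0.17 (adjusted *P* = 0.0807). *FASN*, the fatty acid synthase, had 0.60, 0.04, 0.26 and -0.02, a mean of 0.22 ± 0.28 (adjusted *P* = 0.2). The 3 genes were each highest on array 1 and lowest on array 4. *ACACA* had 0.04 with normexp background correction (adjusted *P* = 0.612) and 0.16 with centred ratios, and passed only when array 4 was left out, at 0.39 (0.0291). *ACLY* passed with centred ratios, at 0.29 (adjusted *P* = 0.0437, in a range up to 0.264).

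Of the regulators of lipid genes, 15 of 18 were tested, with 3 higher, 1 lower and a median of -0.01. *SREBF1*, the transcription factor that drives fatty acid synthesis genes, had log2 ratios of 0.24, 0.78, 0.66 and 0.47 and a mean of 0.54 ± 0.23 (adjusted *P* = 0.0144). *MLXIPL*, which encodes the carbohydrate-responsive factor ChREBP, had a mean of 0.61 ± 0.14 (adjusted *P* = 0.00449) and *RXRA*, the partner of the PPARs, 0.44 ± 0.24 (adjusted *P* = 0.0253). *SREBF1* (0.24) and *RXRA* (0.10) were lowest on array 1, while *MLXIPL* had 0.68 there and was lowest on array 2 (0.40). Any relation of these regulators to the 3 synthesis genes was not tested. *SREBF1* was lost without array 2 (adjusted *P* = 0.0568) or array 3 (0.0609), and *RXRA* without array 2 (0.089), array 3 (0.0995) or array 4 (0.0679). With normexp background correction *SREBF1* had 0.15 (adjusted *P* = 0.0933, in a range from 0.0131 to 0.108), *RXRA* 0.18 (0.0653, in a range from 0.0057 to 0.181) and *MLXIPL* 0.16 (0.0641, in a range from 0.00399 to 0.0641), and none of the 3 passed. *PPARGC1B*, a coactivator of oxidative metabolism that the study had picked from these arrays, fell with a mean of -0.28 ± 0.07 (adjusted *P* = 0.0241), and was lost without array 2 (0.131) or array 3 (0.11). *ESRRA*, also picked there, had -0.16 ± 0.06 and did not pass (adjusted *P* = 0.0961).

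Of the 4 genes of acyl-CoA formation and hydrolysis, 1 passed. *ACOT7*, a thioesterase that splits long-chain acyl-CoA into free fatty acid and CoA, had log2 ratios of 0.34, 0.31, 0.25 and 0.32 on arrays 1 to 4. The mean was 0.31 ± 0.04 (1.24-fold, adjusted *P* = 0.016). The 4 arrays were nearly equal, and the HMB signal lay above the control signal without overlap. The acyl-CoA synthetases *ACSL3* (0.02), *ACSL4* (-0.11) and *ACSL1* (-0.19) did not pass, with adjusted *P* between 0.202 and 0.834. *ACOT7* was lost without array 2 (adjusted *P* = 0.087) or array 3 (0.0631). Of 26 other acyl-CoA and transport genes, 12 were tested, 0 were higher and 1 lower, and their median was -0.0039. The 1 was the synthetase *ACSL5*, at -0.31 ± 0.16 (adjusted *P* = 0.0358), which did not pass with any 1 array left out (adjusted *P* between 0.0562 and 0.144). Its second probe gave -0.48 (adjusted *P* = 0.024).

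Of the genes of storage and lipolysis, 3 of 7 were tested by name and 1 passed. *ABHD5*, the coactivator of the triacylglycerol lipase PNPLA2 at the lipid droplet, had log2 ratios of 0.27, 0.33, 0.35 and 0.30 on arrays 1 to 4. The mean was 0.31 ± 0.04 (1.24-fold, adjusted *P* = 0.015). As for *ACOT7*, the arrays lay close together, and the second, adjoining probe also passed, at 0.26 (adjusted *P* = 0.0249). *PNPLA2* itself had 0.03 ± 0.17, and *PLIN2*, which coats lipid droplets, had -0.06 ± 0.09 with 3 probes between -0.06 and 0.02. *ABHD5* was lost without array 2 (adjusted *P* = 0.0854) or array 3 (0.0754). By description rather than by name, *DGAT1*, an enzyme of the last step of triacylglycerol synthesis, had 0.19 ± 0.15 (adjusted *P* = 0.118), and the droplet protein *PLIN3* had -0.01 ± 0.15 (adjusted *P* = 0.944). The hormone-sensitive lipase *LIPE*, found in the same way, was above background on 0 of 4 arrays in either channel.

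Of 26 other triglyceride and lipid droplet genes, 16 were tested, 2 were higher and 2 lower, with a median of 0.05. *GPAM*, the mitochondrial acyltransferase that begins glycerolipid synthesis, had log2 ratios of 0.77, 0.70, 0.67 and 0.42 and a mean of 0.64 ± 0.15, or 0.16 with normexp background correction. Its control signal was well above background on 2 of 4 arrays, so it entered the test only through the HMB channel, where it was higher. Its values are therefore a description, and it is 1 of the 2 counted as higher. *CIDEA*, a lipid droplet protein, had -0.42, -0.72, -0.81 and -0.92, a mean of -0.72 ± 0.21 (adjusted *P* = 0.0052). It kept its call whichever array was left out. *LPIN2*, a phosphatidate phosphatase, had 0.29 ± 0.09 (adjusted *P* = 0.0258), and *GPAT3*, an acyltransferase of the endoplasmic reticulum, had -0.26 ± 0.10 (adjusted *P* = 0.0377). Neither passed with any 1 array left out, with adjusted *P* between 0.0565 and 0.0852 for *LPIN2* and between 0.0523 and 0.147 for *GPAT3*. *GPAT3* had -0.15 with normexp background correction and was lost (adjusted *P* = 0.0655), and -0.49 with centred ratios (0.00483).

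The largest rise among the 30 genes was in uptake and binding, where 3 of 5 genes were tested and 1 passed. *FABP5*, a cytosolic carrier of fatty acids, had log2 ratios of 0.56, 0.80, 0.54 and 1.11 on arrays 1 to 4. The mean was 0.75 ± 0.27 (1.69-fold, adjusted *P* = 0.00696; chr9:6528615-6528674). All 4 arrays were well above 0, array 4 the highest, and the call was kept whichever array was left out (adjusted *P* between 0.0109 and 0.0297). *FABP3*, the carrier typical of heart and muscle, had -0.14, 0.22, 0.41 and -1.12, a mean of -0.16 ± 0.68 (adjusted *P* = 0.668). Its arrays thus went both ways, and its 5 probes, which share 56 bases, had means between -0.16 and -0.12. The fatty acid transporter *CD36* had -0.04 ± 0.20 and its HMB signal was above background on 3 of 4 arrays.

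**Figure D3:**
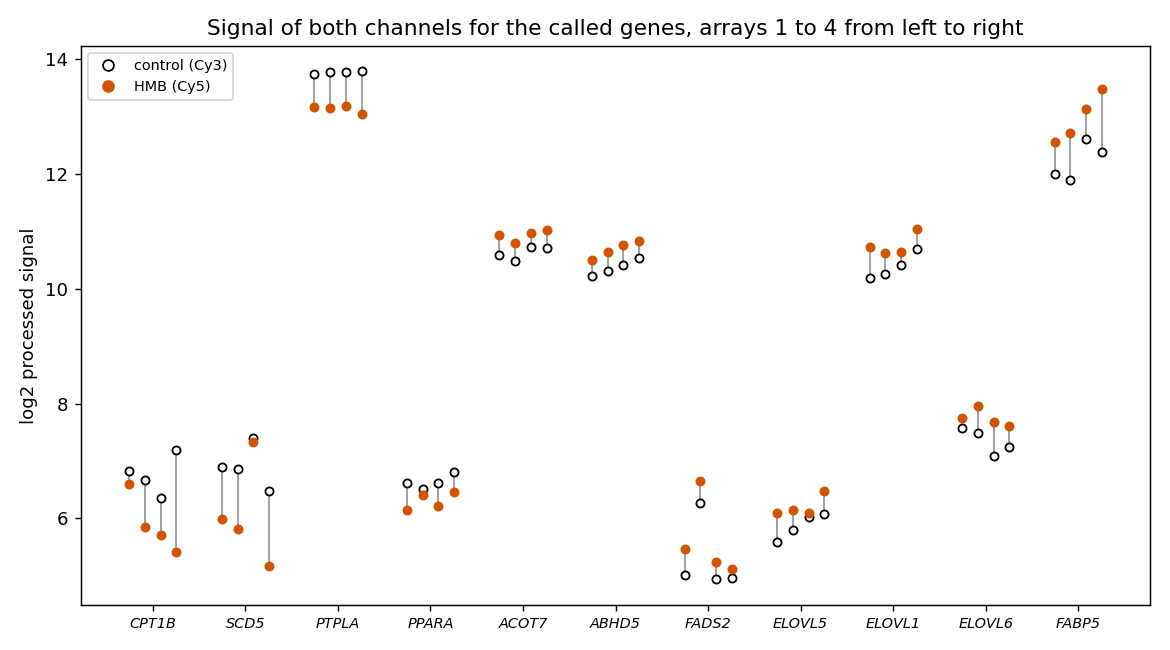
Log2 processed signal of the HMB-treated (Cy5, filled) and control (Cy3, open) channel for the 11 called genes, with arrays 1 to 4 from left to right in each gene and a line joining both channels of an array. Levels of different genes are not comparable, as probes differ in brightness. For *PTPLA*, *PPARA*, *ACOT7*, *ELOVL5* and *ELOVL6* the ranges of the channels do not overlap.

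The ranges of both channels over the 4 arrays did not overlap for 5 of the 11 called genes, namely *PTPLA*, *PPARA*, *ACOT7*, *ELOVL5* and *ELOVL6*. These 11 are already genes past the threshold, which 22.5% of all genes passed. The share without overlap was not counted over all tested or all called genes. The 5 of 11 are therefore a description and cannot be read as many or few. For the other 6 the signal of 1 channel on some array lay within the range of the other channel. For *FADS2*, array 2 was the brightest in both channels, and its control signal of 6.27 exceeded the HMB signal on the other 3 arrays.

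In mitochondrial oxidation, 8 of 9 genes were tested, 0 were higher and 1 lower, with a median of 0.03. *CPT1B*, the muscle form of the carnitine palmitoyltransferase that admits fatty acids to mitochondria, had log2 ratios of -0.23, -0.83, -0.64 and -1.78 on arrays 1 to 4. The mean was -0.87 ± 0.65 (1.83-fold lower, adjusted *P* = 0.0411). Array 4 was far lower than array 1, although all 4 were negative. It was lost without array 2 (adjusted *P* = 0.101) or array 3 (0.09), and without array 4 its mean was -0.57 (adjusted *P* = 0.0383). With normexp background correction it was -0.52 (adjusted *P* = 0.0453, in a range from 0.025 to 0.202 over the alternatives). *CPT1A*, the form that prevails in liver and many other tissues, had 0.03, 0.05, 0.10 and 0.16, a mean of 0.09 ± 0.06, and did not pass (adjusted *P* = 0.332). The difference between *CPT1A* and *CPT1B* was not tested.

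The other 6 tested genes of mitochondrial oxidation did not pass either. *CPT2*, the inner-membrane partner of both, had -0.17 ± 0.14 (adjusted *P* = 0.158), and the medium-chain acyl-CoA dehydrogenase *ACADM* had -0.24 ± 0.20 (adjusted *P* = 0.105). All 4 arrays were negative for both. The very-long-chain dehydrogenase *ACADVL* (0.01), the hydratase *ECHS1* (0.06) and the trifunctional protein subunits *HADHB* (0.07) and *HADHA* (0.15) lay nearer 0. *HADHA* passed with centred ratios, at 0.29 (adjusted *P* = 0.0281, in a range up to 0.327). By description, the long-chain dehydrogenase *ACADL* had 0.08 ± 0.17 (adjusted *P* = 0.481).

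Of 14 other mitochondrial oxidation genes, 13 were tested, 1 was higher and 0 lower, with a median of 0.03. The 1 was the thiolase *ACAA2*, at 0.21 ± 0.06 (adjusted *P* = 0.0494), which did not pass with any 1 array left out (adjusted *P* between 0.071 and 0.171). It was also lost with normexp background correction, at 0.15 (adjusted *P* = 0.0934), and had 0.34 with centred ratios (0.0156). Of 13 peroxisomal oxidation genes, 10 were tested, 0 were higher and 1 lower, with a median of 0.03. All 7 lists of other genes together held 113 genes, of which 75 were tested and 16% passed, 6 higher (*GPAM* included) and 6 lower.

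Of the PPAR receptors, 1 of 3 was tested. *PPARA*, the receptor that controls fatty acid oxidation genes, had log2 ratios of -0.48, -0.10, -0.40 and -0.35 on arrays 1 to 4. The mean was -0.33 ± 0.16 (1.26-fold lower, adjusted *P* = 0.031). Array 2 was nearest 0, and without it the adjusted *P* was 0.0444, whereas it was 0.0785 without array 1, 0.122 without array 3 and 0.0689 without array 4. With normexp background correction its mean was -0.18 (adjusted *P* = 0.0657, in a range from 0.0224 to 0.125 over the alternatives). Of 8 further PPAR target genes 2 were tested, and 0 passed. *UCP2* had 0.03 and *FGF21* -0.47, the latter with -1.35 on array 4.

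**Figure D4:**
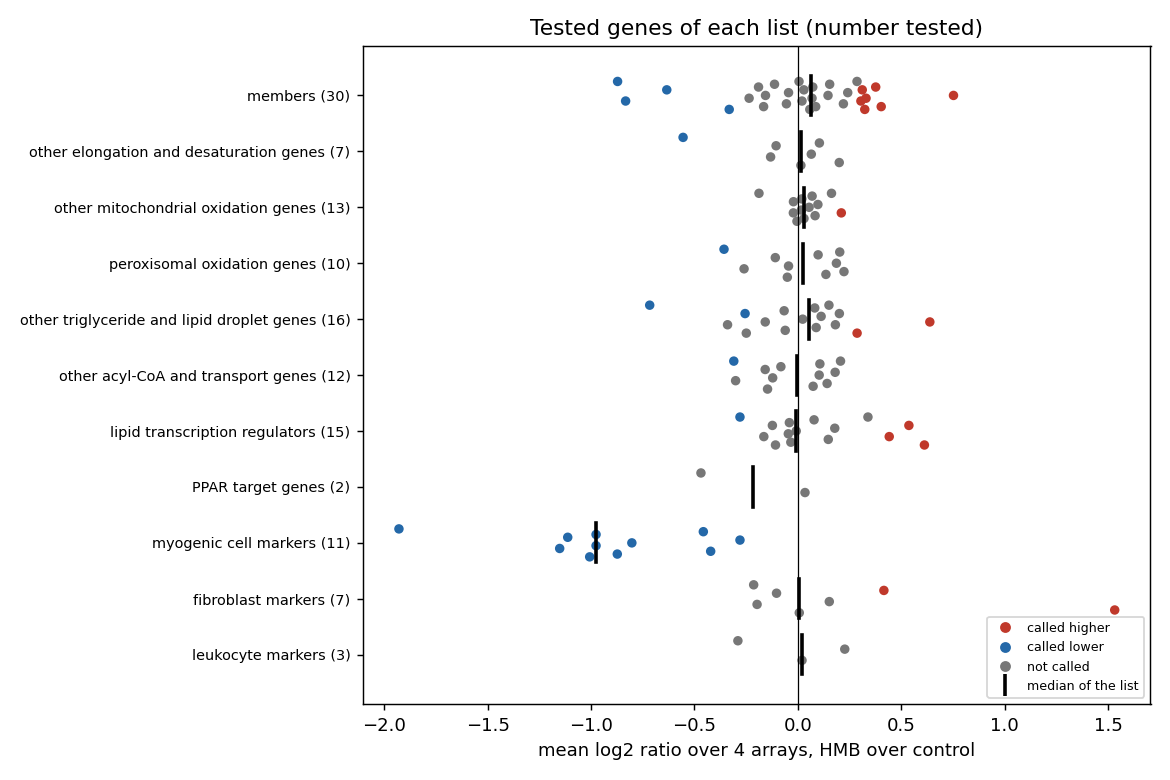
Mean log2 ratio over 4 arrays of each tested gene in the fatty acid list (members), the 7 lists of other lipid genes and the marker lists with a tested gene, with the median of each list as a black bar. The 11 myogenic markers all lie below 0, with a median of -0.98 (-0.59 with centred ratios, not drawn), while the medians of the fatty acid genes and of 6 of the 7 other lipid lists lie between -0.01 and 0.06.

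Markers of cell types were read on the same arrays. Of 12 myogenic markers 11 were tested, and all 11 were lower in HMB-treated cells, with a median log2 ratio of -0.98, from *MYF6* at -0.28 to the perinatal myosin gene *MYH8* at -1.93. *MYF5*, at -1.01, had been picked by the study. For *PAX7* no probe was found by name. The summed signal of the 11 was 149200, 104000, 95450 and 87270 in HMB-treated cells and 204900, 207000, 220400 and 234900 in control cells on arrays 1 to 4, and *MYH3* was the brightest. In such bulk RNA, fewer cells of a type and less RNA per cell cannot be told apart. The falls of *PTPLA* and *CPT1B*, genes typical of muscle, stood beside this fall, and the part of the myogenic markers in these and the other results was not tested. Of the 11, *MYH8*, *TNNC2*, *MYF5*, *ACTA1*, *DES* and *MYH3* kept their calls whichever array was left out, while *CKM*, *TNNT3*, *MYOD1* and *MYOG* were lost without array 2, array 3 or array 4 (adjusted *P* between 0.0503 and 0.101) and *MYF6* without any 1 array (between 0.0662 and 0.161). With centred ratios the median of the 11 was -0.59, and 10 of them passed. In an ordinary t-test 0 of the 11 passed (adjusted *P* between 0.0507 and 0.174). *MYH3* had -0.37 with centred ratios and was lost (adjusted *P* = 0.0522, in a range from 0.00559 to 0.105 over the alternatives), while *ACTA1* at -0.38 (0.0352) and *DES* at -0.62 (0.00607) still passed. The second probe of *MYOD1* gave -0.20 and did not pass (adjusted *P* = 0.131).

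Of 8 fibroblast markers 7 were tested, 2 were higher and 0 lower, with a median of 0.01. *PDGFRA*, a receptor that marks mesenchymal progenitors, had 1.53 ± 0.47 (adjusted *P* = 0.00358) and 0.89 with normexp background correction (0.0062, in a range from 0.00125 to 0.0775 over the alternatives), and *FAP* had 0.42 ± 0.18 (adjusted *P* = 0.0185), the latter lost without array 1 (0.0532), array 2 (0.0806) or array 3 (0.0752). *DCN*, *LUM*, *THY1*, *COL1A2* and *COL3A1* had between -0.21 and 0.15 and did not pass. With centred ratios *DCN* (0.92), *COL1A2* (0.86), *COL3A1* (0.75) and *LUM* (0.30) passed (adjusted *P* between 0.000618 and 0.0385), so that 6 of the 7 were higher, with a median of 0.75. *DCN* also passed with normexp (0.36, adjusted *P* = 0.0325) and on its second brightest probe (0.39, 0.0207). On the second brightest probe of *COL1A2* the direction was the opposite, at -0.55 (adjusted *P* = 0.0279). Over all alternatives the adjusted *P* of these 4 reached between 0.572 and 0.976. For *COL1A1* no probe was found by name. The summed signal of the 7 was 393000, 284500, 308300 and 309200 in HMB-treated and 326500, 306100, 337400 and 429400 in control cells, with *COL1A2* the brightest. The part of these fibroblast markers in the results was not tested.

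Of 9 adipocyte markers, 0 were tested. *ADIPOQ*, *LEP*, *CIDEC*, *FABP4* and *PPARG* were not well above background, and for *CFD*, *PLIN1*, *CEBPA* and *LIPE* no probe was found by name. Likewise *PECAM1*, *CDH5*, *VWF* and *TEK*, the 4 endothelial markers, were not well above background. Of 6 leukocyte markers 3 were tested and 0 passed, with a median of 0.02. *CSF1R* and *CD3E* were not well above background, and for *PTPRC* no probe was found by name. The summed signal of the 3 tested was 7690, 6473, 6179 and 6478 in HMB-treated and 6770, 6154, 5906 and 6881 in control cells, with *CD14* the brightest, and their part in the results was not tested.

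*PTPLA* passed in every alternative setting, with adjusted *P* between 0.000889 and 0.0374, and so did *FADS1*, with adjusted *P* between 0.0064 and 0.0419. Some settings cannot differ from the reported fit, or hardly do, such as the series' summary of values, the array as replicate block (3490 genes called, as reported) and the other readings of several spots, so the settings passed are not counted here. Calls of the other genes were lost mainly in an ordinary t-test, with unpaired channels, without a filter on dim probes and with an array left out. The highest adjusted *P* of each gene over these settings was 0.0883 for *FABP5*, 0.087 for *ACOT7*, 0.105 for *ABHD5* and *ELOVL6*, 0.125 for *PPARA* and 0.131 for *ELOVL1*. It was 0.177 for *ELOVL5*, 0.202 for *CPT1B*, 0.259 for *SCD5* and 0.68 for *FADS2*. None of the 11 changed direction in any of these settings.

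**Figure D5:**
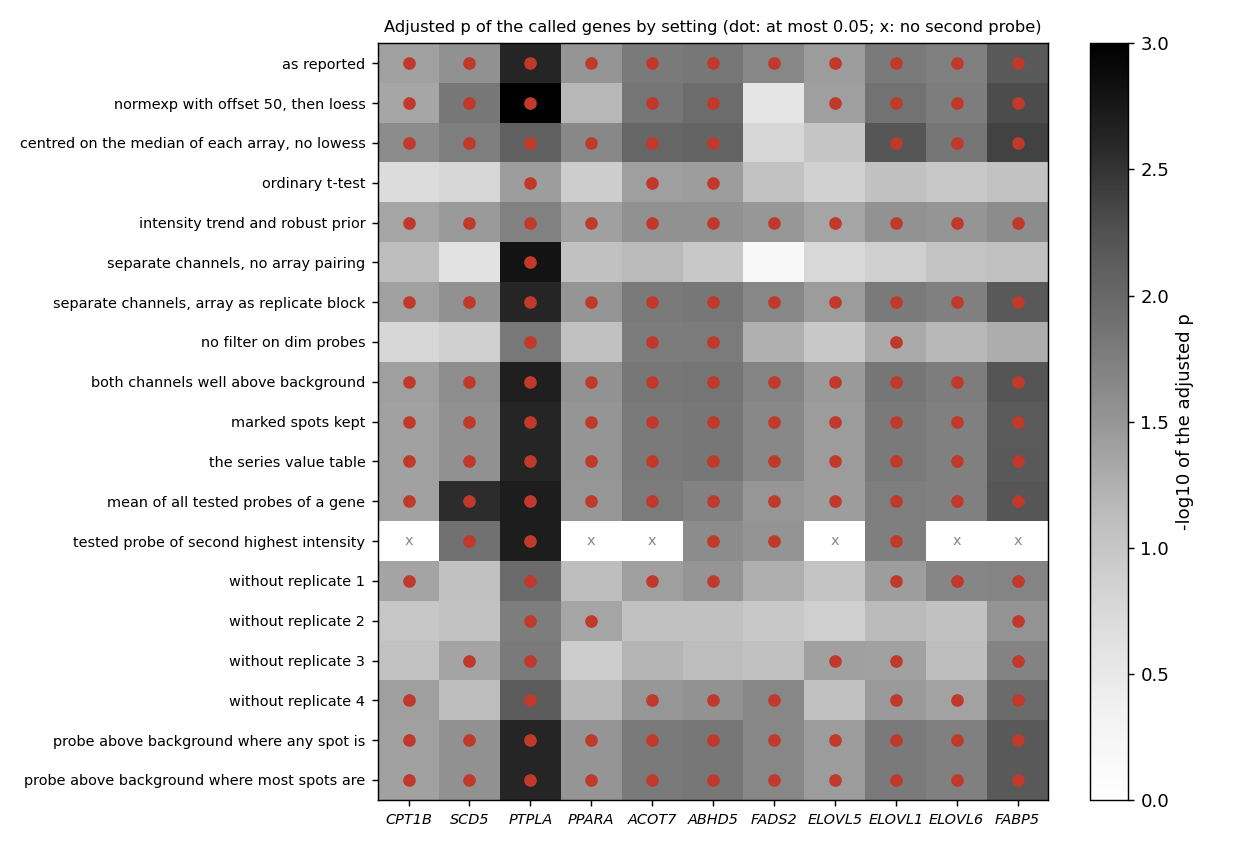
Adjusted *P* of the 11 called genes (columns) as reported and in each alternative setting (rows), shaded on a -log10 scale, with a red dot where it was at most 0.05 and an x where a gene had no second tested probe. *PTPLA* has a dot in every row, and *FABP5* has one in each row that leaves out an array.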

How the data were processed

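Messenger RNA of HMB-treated (Cy5) and control (Cy3) equine satellite cells was read from 4 two-colour arrays with probes 60 bases long. The ratios, deposited as log10 of Cy5 to Cy3, had been background-subtracted and dye-normalised (linear and lowess) by the authors. The deposited intensity values are raw mean and background signals and processed signals, from Feature Extraction 10.10.1.1 per the file headers, another version than the methods name. Marks of 0 or 1 for background, uniformity and saturation are also per the file headers. The series' summary of values equals the array ratios, with a largest difference of 0.

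Log2 ratios are these values times 3.32. On each array 1417 control spots and marked spots (11, 17, 32 and 15 on arrays 1 to 4) were left out, 0 spots were saturated, and replicate spots were averaged. Testing needed at least 3 arrays with a value and 1 channel, the same throughout, marked well above background on each of the 4, which left 27383 of 43603 probes. For probes with several spots every spot had to be above background. This reading was taken after it was compared with an earlier count of tested probes, and the other readings gave 27387 (any spot) and 27384 (most spots). Probes without a symbol in the files were named through RefSeq by gene ID (1684) or accession (499). Fits used limma 3.58.1 in R 4.3.3 and version 1.17.8 of data.table, and were tested on simulated data. Figures used Python 3.11.15, numpy 2.4.6, pandas 2.3.3 and matplotlib 3.10.9.

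The fatty acid genes, the lists and the markers were chosen with earlier results of these data known. Every fatty acid gene with a tested probe is named. From the other lists, called genes are named, up to 4 rises and 4 falls each, and any tested marker may be, but some genes of these lists are left unnamed. Genes outside this rule (*HACD2*, *HACD3*, *HSD17B12*, *HACD4*, *TECR*, *ESRRA*, *UCP2*, *FGF21*), those found by description and the sequences shown were chosen after values were seen. Alternatives were normexp with an offset of 50 and loess, centred ratios without lowess, an ordinary t-test (named in the study's workbook), an intensity trend with robust prior, separate channels with and without the array as block, other filters on dim probes, marked spots kept, values from the series' summary, all probes averaged or the second brightest in place of the brightest, and fits on 3 arrays. Probe sequences and EquCab1 positions are from the array files. Parts of transcripts were not assigned, as no annotation of that build was used here.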

Additional observations from a re-analysis of the deposited data

Results flagged for a closer look

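The gap between the outermost array and its nearest neighbour was taken as a share of the range over the 4 arrays, and by this rule 1 gene was set apart, with a share of 0.917. *MLXIPL* had a log2 ratio of 0.40 on array 2, beside 0.68, 0.70 and 0.67 on arrays 1, 3 and 4. Some other genes had a wider gap in log2 units but a smaller share, such as *SCD5* on array 3. For values with a normal spread the rule flags about 1 in 20 genes by chance, and 67 genes were screened. The gene was higher in HMB-treated cells on all 4 arrays and was past the threshold without array 2 (adjusted *P* = 0.0125). It was not past it in an ordinary t-test (adjusted *P* = 0.0626) or with normexp background correction, where its mean was 0.16 (0.0641). Over all alternatives its adjusted *P* ranged from 0.00399 to 0.0641.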

How the results depend on the processing

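Of the 11 fatty acid genes called, 2 (*PTPLA* and *FABP5*) were called whichever array was left out. With 1 array left out, 3 to 10 of the fatty acid genes were called, 1 to 8 of them higher and 2 to 2 lower, and 2573 to 4957 probes and 1393 to 2734 genes were called in all. Fewer arrays enter these fits.

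In an ordinary t-test 768 probes, 409 genes and 3 fatty acid genes (2 higher, 1 lower) passed, and these 3, *PTPLA*, *ACOT7* and *ABHD5*, are among the 11. With separate channels and no pairing, 2226 probes, 1199 genes and 1 fatty acid gene (0 higher, 1 lower) passed. With the array as the replicate block the 3490 genes called were as many as in the ratio test. Without a filter on dim probes 3690 probes, 2049 genes and 6 fatty acid genes passed, 1 of them lower, out of more probes tested. Only 4 of these 6, *ABHD5*, *ACOT7*, *ELOVL1* and *PTPLA*, are among the 11, and 7 of the 11 calls were lost. For the second brightest probe, which fewer genes have, the numbers were 1154 genes and 5 fatty acid genes (3 higher, 2 lower), with a median of -0.0608 over 15. The median of the fatty acid genes was 0.017 with normexp and 0.10 with centred ratios. That of all tested genes moved the same way, to -0.0032 and 0.043, from 0.018 as reported. The cause was not tested.

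Of all genes called, 48.5% were higher, compared with 30.2% for unpaired channels and 37.3% without array 2. Centred ratios gave 55.5% and kept 9 of the 11 calls. In them the fibroblast markers *COL1A2* and *COL3A1* reversed to 0.86 and 0.75 and passed, and *DCN* (0.92) and *LUM* (0.30) passed as well. In the reported ratios *COL1A2* passed as lower (-0.55) on its second brightest probe, and the cause of these differences was not tested. The marker and description genes, leave-outs with the reported probe kept (which differ only for *SCD5* without array 3), and both other readings of probes with several spots, were added to the alternatives after seeing the data. These readings left the 11 calls as 11.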
